A study of Mus musculus with 33 samples.

Results

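Immediate early genes were followed through the differentiation of mouse embryonic stem cells (mESCs) toward tendon and fibrocartilage. The set comprised 10 genes named by symbol: Fos, Fosb, Fosl2, Jun, Junb, Egr1, Egr2, Ier2, Atf3 and Nr4a1. Of these, 9 were found among the 17120 genes of the count table, and Egr2 was not analysed here. Each of the 9 passed the filter on low counts, which removed 0 of 17120 genes. The table had itself been filtered, since no gene had fewer than 3 libraries at 0.611 CPM (the count scaled to its library total) or more. The genes were named as a textbook class, by a rule with no threshold on measured values, although earlier results of these data were known when they were chosen.

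The libraries came from mESCs carrying the ScxGFP tendon reporter, which had been grown as embryoid bodies and taken to paraxial mesoderm (PM) with a Wnt agonist and a BMP inhibitor by day 6 of culture (D6). The study also describes a protocol with AGN 193109 or all-trans retinoic acid added before D6, and which addition, if any, the PM of these libraries had is not given in the sources used here. Induction used TGFβ1, the hedgehog agonist SAG and FGF2, with 1 of a pair of retinoid ligands, and the labels give PM as embryoid bodies and the induced cells as a monolayer. CD1530 activates the receptor RARγ and defines the tendon protocol, while AGN 193109 (AGN) is an inverse agonist of RARs and defines the fibrocartilage protocol. Induced cells were collected 5 times: after 0.25 days (D6.25), after 0.75 days (D6.75), after 1.5 days (D7.5), after 2.5 days (D8.5) and after 4 days (D10). The 11 groups held 3 biological replicates each. All groups carried the reporter, and PM was the common starting point. No induced group lacked both ligands, so CD1530 and AGN could be compared only with each other and with PM. Cultures were not sorted, and which mESC line gave which replicate was not given in the sources used here. Library totals ran from 17116084 to 22775275 counts, and AGN D8.5 replicate 1 was the deepest at 38120841 counts. CD1530 D6.75 replicate 1 stood apart from both of its replicates, with a chi-square per gene of 20.6 and 21.9 against 1.59 to 4.87 in the other 31 replicate pairs, and results that turn on it are also given without it. In PM, the 6 PM markers (Tbx6, Msgn1, Hes7, Dll1, T and Dll3) summed to 129 to 133 TMM CPM (CPM after trimmed mean of M-values scaling). Of these, Tbx6 and Msgn1 had 9.56 and 3.38. The 5 pluripotency markers summed to 2604 to 2716 TMM CPM, with Pou5f1 at 701. At D10 the tendon factor Scx reached 858 TMM CPM in CD1530 and 1223 in AGN, and the cartilage collagen Col2a1 145 and 2497.

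Immediate early genes are switched on without new protein synthesis when growth factors, matrix contact or stress activate ERK and other kinases, which act through serum response factor with its ternary complex partners and through CREB at their promoters. FOS proteins (Fos, Fosb, Fosl2) cannot bind DNA alone and pair with JUN proteins (Jun, Junb) to form the factor AP-1, while Atf3, a stress-responsive member of the ATF/CREB family, can pair with JUN proteins as well. Egr1 and Egr2 encode zinc finger factors known to promote collagen and other matrix genes in tendon, Ier2 encodes a small nuclear protein, and Nr4a1 encodes the orphan nuclear receptor Nur77. The classic response peaks and fades soon after a stimulus, and the earliest induced collection, at 0.25 days, does not sample a peak of that kind.

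The promoters of Fos, Fosb, Jun and Junb are shown because these 4 AP-1 genes had the largest log2 changes between neighbouring collections below. Sequences are the 250 bases before the RefSeq start on GRCm38.p6, written 5′ to 3′ on the gene's strand. Windows of 8 of the 10 genes were searched, and those of Egr2 are not shown. No window was at hand for Ier2, and that of Egr1 was left out of the search. Capitals mark the core of the CREB site (TGACG, also inside the half-site TGACGT and the full site TGACGTCA), the variant AP-1 site TGACATCA and the TATA box (TATAAA).
Fos, chr12:85473640-85473889, plus strand: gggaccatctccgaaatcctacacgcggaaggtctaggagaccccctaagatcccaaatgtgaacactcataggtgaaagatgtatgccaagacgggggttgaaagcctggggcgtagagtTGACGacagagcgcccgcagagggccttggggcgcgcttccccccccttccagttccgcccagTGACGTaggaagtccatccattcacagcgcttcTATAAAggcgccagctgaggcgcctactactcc
Fosb, chr7:19310046-19310295, minus strand: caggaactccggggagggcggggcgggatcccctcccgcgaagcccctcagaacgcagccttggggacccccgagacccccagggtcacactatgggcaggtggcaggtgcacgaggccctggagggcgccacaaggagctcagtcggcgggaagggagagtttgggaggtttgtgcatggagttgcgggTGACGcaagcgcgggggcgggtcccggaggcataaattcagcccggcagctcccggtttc
Jun, chr4:95052223-95052472, minus strand: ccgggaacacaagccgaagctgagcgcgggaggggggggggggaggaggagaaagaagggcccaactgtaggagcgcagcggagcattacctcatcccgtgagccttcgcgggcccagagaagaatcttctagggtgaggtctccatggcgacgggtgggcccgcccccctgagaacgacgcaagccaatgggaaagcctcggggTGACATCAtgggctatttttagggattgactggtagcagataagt
Junb, chr8:84978749-84978998, minus strand: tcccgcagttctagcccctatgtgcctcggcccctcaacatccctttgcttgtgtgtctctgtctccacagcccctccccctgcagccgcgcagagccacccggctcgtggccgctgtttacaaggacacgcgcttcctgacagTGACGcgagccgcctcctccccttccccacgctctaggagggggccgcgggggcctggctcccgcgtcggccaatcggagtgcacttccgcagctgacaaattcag
In the Fos window, TGACG lay at −129 to −125 and TGACGT at −66 to −61 from the start, with TATAAA at −33 to −28. The Jun window held TGACATCA at −45 to −38, and the Fosb and Junb windows held TGACG at −60 to −56 and at −106 to −102. The Atf3 window held ACGTCA, the reverse complement of TGACGT, at −8 to −3, and the Nr4a1 window held CGTCA, the reverse complement of TGACG, 4 times. The Fosl2 window held none of the motifs searched on both strands, which were the CREB core, half-site and full site, the AP-1 site TGANTCA, the variant AP-1 site, the TATA box and the CArG box, where serum response factor binds. Of 32851 windows of the same length, 17.8% held the CREB core, 6.47% the half-site, 1.55% the full site, 6.75% the AP-1 site, 2.93% its variant, 12.4% the TATA box and 1.47% the CArG box. Among the 8 genes searched, CArG boxes were found only in windows of Egr2, which was not analysed here. Whether Egr1 or Ier2 has such a box was not examined, and sites beyond 250 bases from the start were not searched. The Fosl2, Atf3 and Nr4a1 windows lay inside the annotated gene, and the bases before its outermost annotated start were not searched. The matches are descriptions of letters and say nothing of binding in these cells.

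Per length, the members spanned a wide range of levels. In RPKM (TMM CPM per kilobase of exon), Ier2 ranked first in PM at 80.1 ± 5.52 (mean ± SD, n = 3), followed by Egr1 at 25.2 ± 2.91, Jun at 18.5 ± 1.25 and Junb at 17.5 ± 1.21. Nr4a1, Atf3, Fos and Fosl2 followed at 8.25 ± 0.455, 6.28 ± 0.787, 4.59 ± 0.581 and 2.00 ± 0.0905 RPKM, and Fosb was last at 0.222 ± 0.00248 RPKM. Ier2 ranked first and Fosb last in every group, with 1 exception at the top: in CD1530 D10, Jun reached 98.5 ± 0.853 RPKM and Ier2 73.5 ± 3.10. Exon lengths are unions over GENCODE transcripts, so that the rank of genes with long untranslated exons depends on which transcripts are made. All further levels are TMM CPM and are compared within a gene.

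**Figure D1:**
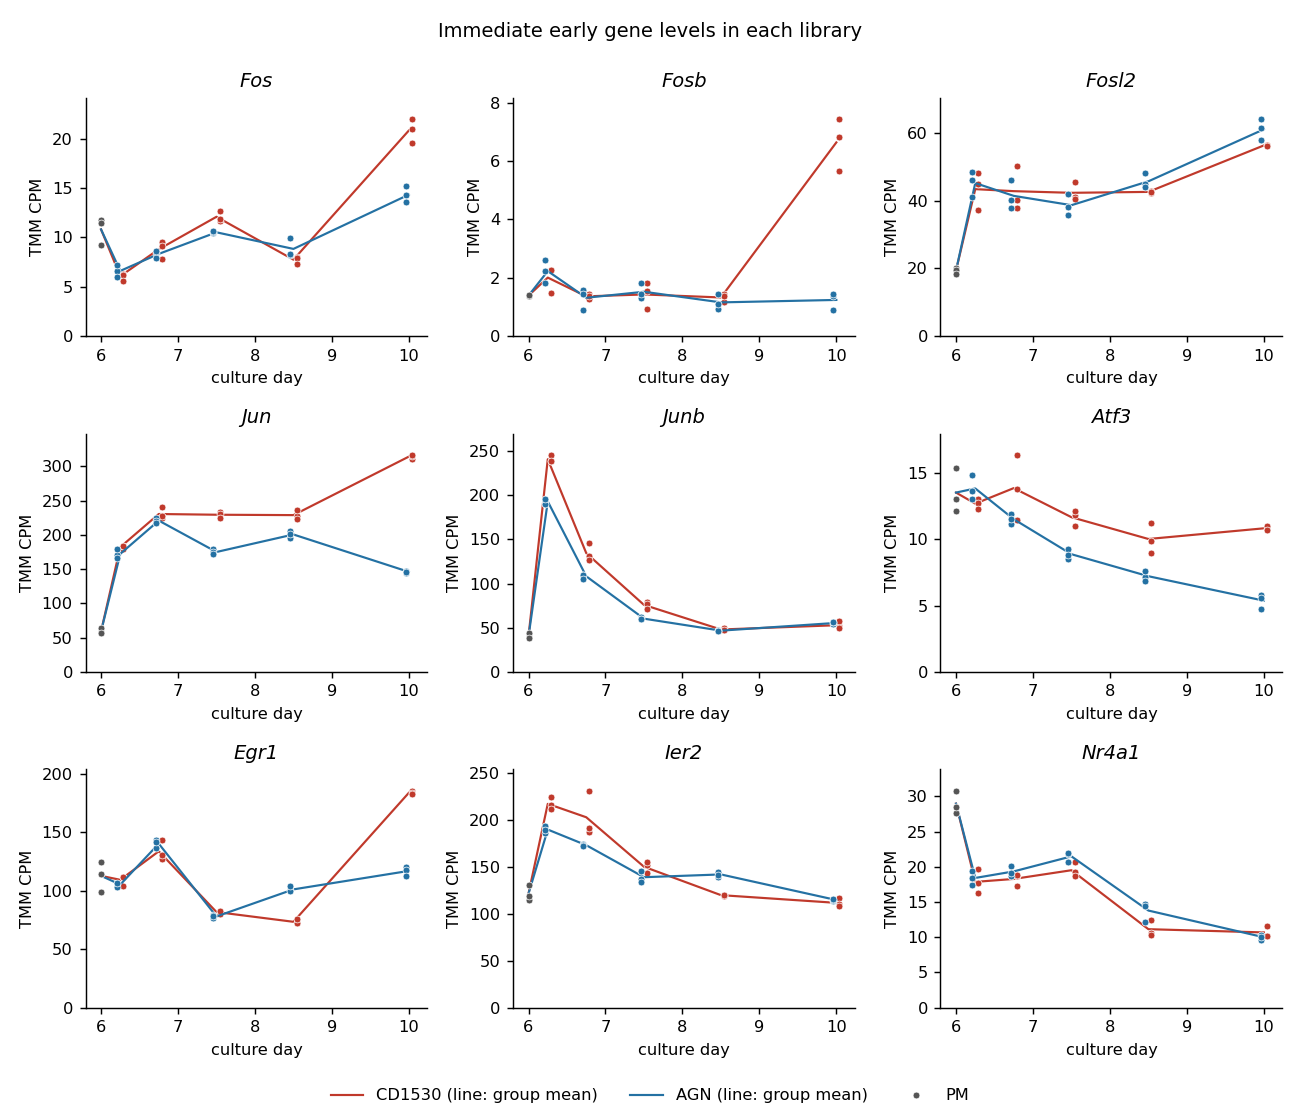
TMM CPM (y, from 0) of each of the 9 genes against culture day (x), 1 point per library, red for CD1530, blue for AGN and grey for PM, with lines through the group means. Fosb stays under 3 CPM in every library but the 3 of CD1530 D10, and Junb is highest at D6.25 among the times sampled in both conditions.

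From PM to D6.25, the JUN genes, Fosl2 and Ier2 rose in both conditions, Fos and Nr4a1 fell, and Egr1 and Atf3 did not pass the test. Junb, which encodes a JUN protein often weaker as an activator than c-Jun, had 39.1, 43.5 and 38.4 CPM in the PM libraries. It had 239, 245 and 238 CPM in CD1530 and 194, 190 and 195 CPM in AGN at D6.25. All induced libraries thus lay far above all PM libraries, with log2 fold changes of 2.57 ± 0.05 (SE) in CD1530 and 2.26 ± 0.05 in AGN (edgeR adjusted p = 9.85e-35 and 9.24e-33).

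Jun, the c-Jun gene, had 57.5, 63.6 and 56.1 CPM in PM, against 180, 184 and 183 in CD1530 and 171, 167 and 179 in AGN. The rise was 3.08-fold in CD1530 and 2.91-fold in AGN (edgeR adjusted p = 1.51e-31 and 1.13e-30). Fosl2, which encodes the FOS protein Fra-2, had 20.1, 19.6 and 18.4 CPM in PM, and its induced libraries at D6.25 ranged from 37.2 to 48.6 CPM. Its groups did not overlap, and it rose 2.24-fold in CD1530 and 2.33-fold in AGN. Ier2 rose 1.78-fold in CD1530, from 122 ± 8.40 CPM (SD, n = 3) to 218 ± 6.58, and 1.56-fold in AGN, to 190 ± 3.76.

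Fos, the prototype of the class, went the other way. It had 9.24, 11.7 and 11.5 CPM in PM, 6.33, 6.23 and 5.62 in CD1530 D6.25 and 6.63, 6 and 7.17 in AGN D6.25. Every induced library was lower than every PM library, and Fos fell 1.78-fold in CD1530 and 1.63-fold in AGN (edgeR adjusted p = 2.29e-09 and 7.91e-08). Nr4a1, a nuclear receptor of the same early class, fell 1.62-fold and 1.57-fold, from 29.0 ± 1.6 CPM (SD, n = 3) to 17.9 ± 1.69 and 18.4 ± 0.965. Fosb rose 1.45-fold in CD1530 and 1.61-fold in AGN at a low level, from 1.39 ± 0.0155 to 2.00 ± 0.450 and 2.23 ± 0.390 CPM.

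Groups without overlap were common at this step, at 71.0% of all genes in CD1530 and 72.1% in AGN. In counts, 5 of the 9 genes rose and 2 fell in each condition. Of all genes tested, CD1530 had 34.5% rising and 33.3% falling, and AGN had 35% and 33.1%, so these shares are to be read against a background in which most genes changed. The Fosb call rested on single libraries. In CD1530 its adjusted p was 0.0393, against 0.0589 in DESeq2, 0.0686 to 0.0931 without any 1 of the 3 PM libraries, and 0.137 and 0.139 without CD1530 D6.25 replicates 2 and 3. In AGN it was 0.00894, and 0.0621 without AGN D6.25 replicate 1. The move to monolayer given in the labels, the change of medium, the ligand and the time elapsed coincide with this step and cannot be told apart. Fewer cells of a type and less RNA per cell also cannot be told apart in these unsorted cultures.

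After D6.25, the members followed different courses. Junb decayed stepwise in both conditions. In CD1530, it fell from 241 ± 3.83 CPM at D6.25 to 134 ± 10.1, 75.8 ± 4.04 and 47.9 ± 1.13 (SD, n = 3) at D6.75, D7.5 and D8.5. In AGN, it fell from 193 ± 2.98 to 108 ± 2.46, 60.2 ± 1.49 and 46.6 ± 0.789. Each of these 6 steps was called, and the first and second were of near equal size in log2 (−0.84 and −0.83 in CD1530, −0.83 and −0.85 in AGN), although the CD1530 values were −0.90 and −0.77 without D6.75 replicate 1. Its order of levels was graded, with 3 of 10 neighbouring groups overlapping, all of them among D8.5 and D10.

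Ier2 declined with Junb but less far, and 6 of 10 neighbouring groups overlapped in its order. Its highest group, CD1530 D6.25, lay 1.94-fold above its lowest, CD1530 D10. The fall from D6.75 to D7.5 was 1.35-fold in CD1530 and 1.25-fold in AGN (edgeR adjusted p = 8.08e-09 and 5.76e-06). From D7.5 to D8.5 it fell 1.25-fold in CD1530, from 152, 156 and 143 to 121, 120 and 120 CPM, with no overlap, and it did not pass the test in AGN. At that CD1530 step, 50.3% of all genes had no overlap.

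Fos recovered while Junb and Ier2 fell. It rose in both steps between D6.25 and D7.5 in both conditions, by log2 0.54 ± 0.10 and 0.46 ± 0.09 (SE) in CD1530 and by 0.33 ± 0.11 and 0.34 ± 0.10 in AGN. At D7.5 it had 11.7, 11.9 and 12.7 CPM in CD1530 and 10.4, 10.5 and 10.6 in AGN, and both groups overlapped PM. It then fell to 7.74 ± 0.374 CPM in CD1530 D8.5 and 8.83 ± 0.975 in AGN D8.5 before a second rise by D10. In its order, 6 of 10 neighbouring groups overlapped, and both D10 groups stood clear at the top.

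Egr1 rose from D6.25 to D6.75, by log2 0.29 ± 0.05 in CD1530 and 0.41 ± 0.05 in AGN, and then fell by 0.71 ± 0.05 and 0.84 ± 0.05 to D7.5. In AGN its libraries went from 136, 143 and 141 CPM at D6.75 to 76.4, 79.1 and 78.7 at D7.5. In CD1530 they went from 127, 131 and 143 to 82.2, 80.2 and 83.1. Libraries of D6.75 and D7.5 did not overlap in either condition, nor did those of 38.9% of all genes in CD1530 and 44.0% in AGN. Of neighbouring groups in its order, 5 of 10 overlapped.

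Jun held a plateau in CD1530, with 230 ± 8.55, 229 ± 4.51 and 229 ± 6.29 CPM (SD, n = 3) at D6.75, D7.5 and D8.5, and neither step between these passed the test. In AGN it moved up and down, from 221 ± 3.31 CPM at D6.75 to 175 ± 3.57 at D7.5 and 201 ± 5.27 at D8.5. Both of those AGN steps were called (log2 −0.34 ± 0.04 and 0.20 ± 0.04 SE, edgeR adjusted p = 1.24e-09 and 3.26e-05). Across all 11 groups, 4 of 10 neighbouring pairs overlapped, 3 of them between the CD1530 plateau groups and AGN D6.75.

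Nr4a1 stayed at 17.9 to 21.5 CPM as a group mean from D6.25 to D7.5 and then fell by D8.5, 1.75-fold in CD1530 and 1.55-fold in AGN (edgeR adjusted p = 2.38e-10 and 1.06e-08). Its PM libraries were the highest, and 8 of 10 neighbouring groups overlapped. Atf3 drifted down in AGN at each step after D6.25, from 13.8 ± 0.906 CPM at D6.25 to 11.5 ± 0.409, 8.88 ± 0.383, 7.22 ± 0.388 and 5.37 ± 0.546 at D10. In CD1530 only its step from D6.75 to D7.5 was called (log2 −0.25 ± 0.10). Fosl2 had group means of 38.7 to 45.8 CPM from D6.25 to D8.5, with 1 called step, from D7.5 to D8.5 in AGN, and 7 of 10 of its neighbouring groups overlapped. Fosb lay between 1.15 and 2.23 CPM as a group mean over PM and all induced groups up to D8.5, and 9 of 10 of its neighbours overlapped.

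From D6.25 to D6.75, 3 genes rose (Fos, Jun and Egr1) and 2 fell (Fosb and Junb) in CD1530, where the shares of all genes were 25.8% higher and 20.1% lower. In AGN, the 3 were the same and 4 fell (Fosb, Junb, Ier2 and Atf3), with 24.9% and 18.8% of all genes called. From D6.75 to D7.5, Fos rose and 4 genes fell in CD1530 (Junb, Egr1, Ier2 and Atf3), against 18.7% and 15.5% of all genes. In AGN, Fos rose and 5 fell (those 4 and Jun), against 14.2% and 16%. Without CD1530 D6.75 replicate 1, 6 genes were called in the first of these CD1530 steps in place of 5, with Ier2 added as a fall (log2 −0.20, edgeR adjusted p = 1.13e-05, against −0.10 and 0.112 with it), and 4 in the second in place of 5, with the Atf3 fall lost (log2 −0.11). From D7.5 to D8.5, none rose and 5 fell in CD1530 (Fos, Junb, Egr1, Ier2 and Nr4a1), against 18.8% and 17.7%, while in AGN 3 rose (Fosl2, Jun and Egr1) and 4 fell (Fos, Junb, Atf3 and Nr4a1), against 21.4% and 20.6%.

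Several of the smaller step calls rested on single libraries. For Fosb from D6.25 to D6.75, the edgeR adjusted p of 0.0406 in CD1530 became 0.145 and 0.15 without CD1530 D6.25 replicates 2 and 3 and 0.103 and 0.0775 without D6.75 replicates 2 and 3, and 0.0671 with the compared groups alone. The 0.00879 in AGN became 0.0632 without D6.25 replicate 1 and 0.0731 without D6.75 replicate 3. For Ier2 over the same step in AGN, 0.0336 became 0.0613 to 0.109 without any 1 library other than D6.25 replicate 1. For Atf3 in AGN, 0.0277 became 0.133 without D6.25 replicate 1, and 0.0894 and 0.0581 without D6.75 replicates 2 and 3, and for Fos, 0.00917 became 0.0619 without D6.25 replicate 2. The Atf3 fall from D6.75 to D7.5 in CD1530 had overlapping libraries, and its 0.0453 became 0.0555 to 0.452 without any 1 library other than D6.75 replicate 3, 0.207 with the compared groups alone and 0.0507 in DESeq2.

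From D7.5 to D8.5 the same held for Egr1 in CD1530, whose adjusted p of 0.0173 became 0.0601 without D7.5 replicate 3 and 0.0637 and 0.0626 without D8.5 replicates 1 and 2. In AGN, the 0.0236 of Fos became 0.0528 and 0.0601 without D7.5 replicates 2 and 3 and 0.148 and 0.0765 without D8.5 replicates 1 and 2. The 0.0294 of Fosl2 became 0.134 and 0.0801 without D7.5 replicates 1 and 3 and 0.131 without D8.5 replicate 1, and 0.143 with library sizes alone, and the 0.0253 of Atf3 became 0.0966 without D7.5 replicate 2 and 0.0804 and 0.0653 without D8.5 replicates 1 and 3. Without AGN D8.5 replicate 1, the deepest library, 4 of the 9 genes were called in this step in place of 7.

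**Figure D2:**
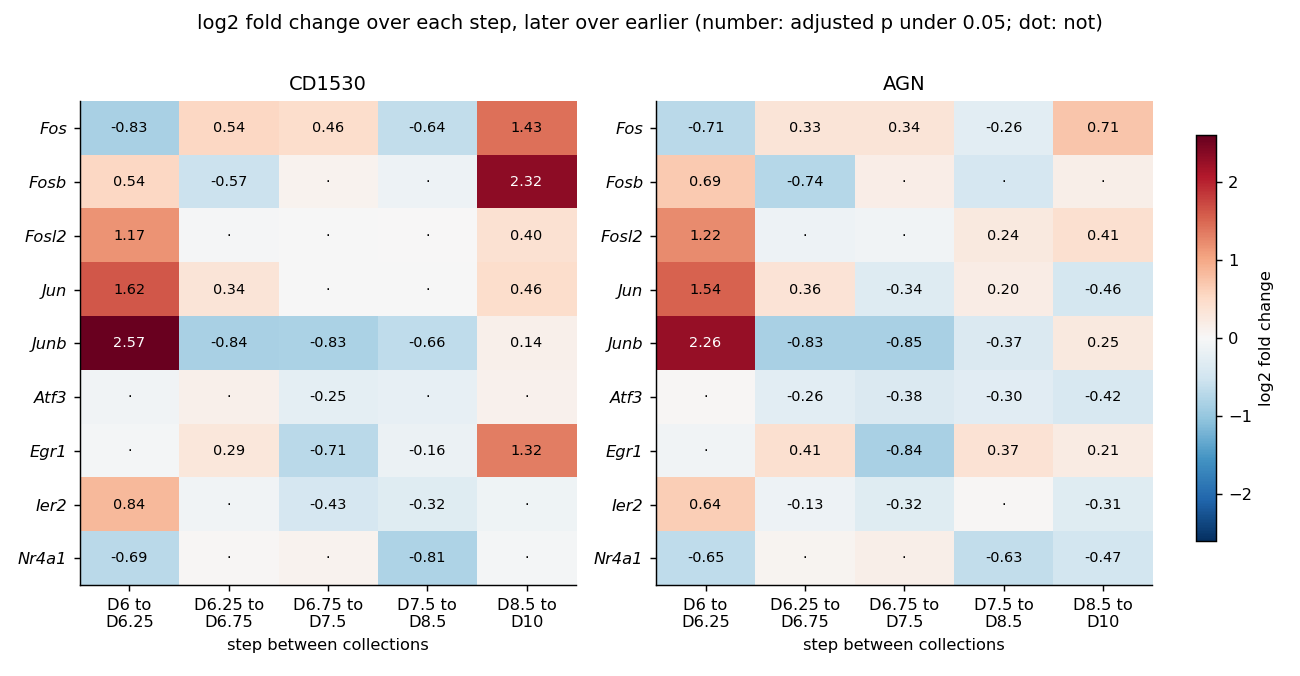
Heat map of the log2 fold change of each gene (rows) over each step between collections (columns), left for CD1530 and right for AGN, coloured from blue (lower at the later time) to red (higher), with the value printed where the adjusted p was under 0.05 and a dot elsewhere. Junb has the deepest red of the first step in both conditions (2.57 and 2.26), and Fosb the deepest red of the last step, in CD1530 (2.32).

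Between D8.5 and D10, 6 of the 9 genes rose in CD1530 (Fos, Fosb, Fosl2, Jun, Junb and Egr1) and none fell, against 27.4% of all genes higher and 29.9% lower. In AGN, 4 rose (Fos, Fosl2, Junb and Egr1) and 4 fell (Jun, Ier2, Atf3 and Nr4a1), against 29.9% and 29.5% of all genes. Libraries of D8.5 and D10 did not overlap in 65.3% of all genes in CD1530 and 64.4% in AGN. With library sizes alone as the scaling, the median of all genes shifted to −0.13 (log2) in CD1530 and −0.11 in AGN, and the called genes split into 35.6% higher in CD1530 and 38.7% in AGN, in place of 47.8% and 50.4%.

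Fosb, whose protein pairs with JUN proteins, had 1.17, 1.44 and 1.36 CPM in CD1530 D8.5. It had 6.82, 7.43 and 5.68 CPM in CD1530 D10, so that the lowest D10 library stood well above any D8.5 library. This was a log2 rise of 2.32 ± 0.21 (SE, edgeR adjusted p = 1.42e-12), on raw counts of 21 to 27 at D8.5 and 101 to 135 at D10. In AGN, Fosb had 0.921, 1.43 and 1.11 CPM at D8.5 and 1.38, 1.45 and 0.891 at D10, which overlapped. Its level in CD1530 D10 was 4.78-fold that of PM, and in its order it was the sole group that did not overlap the next.

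Fos had 7.99, 7.93 and 7.31 CPM in CD1530 D8.5 and 19.6, 22 and 21 in CD1530 D10. In AGN it had 8.23, 8.31 and 9.96 CPM and then 15.2, 14.3 and 13.5. It rose in both conditions with no overlap, 2.69-fold in CD1530 and 1.64-fold in AGN (edgeR adjusted p = 1.77e-16 and 2.05e-08). Egr1 had 72.2, 72.4 and 75.8 CPM in CD1530 D8.5 and 185, 184 and 182 in CD1530 D10. In AGN it had 101, 99.4 and 104 CPM and then 120, 118 and 113. Its rise was thus 2.50-fold in CD1530 and 1.16-fold in AGN (edgeR adjusted p = 5.38e-24 and 0.000458), and the AGN rise did not pass with library sizes alone as the scaling (log2 0.11, adjusted p = 0.0561).

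Jun moved in opposite directions. It had 227, 236 and 223 CPM in CD1530 D8.5 and 311, 315 and 316 in CD1530 D10, a 1.37-fold rise. In AGN it had 195, 205 and 202 CPM and then 144, 148 and 146, a 1.37-fold fall (edgeR adjusted p = 5.74e-14 and 9.6e-14). The D8.5 and D10 libraries did not overlap in either condition. Fosl2 rose alike, by log2 0.40 ± 0.09 in CD1530 and 0.41 ± 0.09 in AGN, to 56.4 ± 0.197 and 61.2 ± 3.12 CPM (SD, n = 3). Junb rose by log2 0.25 ± 0.05 in AGN, while its rise of 0.14 ± 0.05 in CD1530 had overlapping libraries. That CD1530 call (edgeR adjusted p = 0.0267) was lost with library sizes alone (0.49) and without CD1530 D8.5 replicates 1 or 3 (0.0781 and 0.0718) or D10 replicate 2 (0.25).

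Over the whole of the induction, from PM to D10, 6 genes rose (Fos, Fosb, Fosl2, Jun, Junb and Egr1) and 3 fell (Ier2, Atf3 and Nr4a1) in CD1530, where 43.3% of all genes were called higher and 39.9% lower. In AGN, 4 rose (Fos, Fosl2, Jun and Junb) and 2 fell (Atf3 and Nr4a1), against 41.6% and 40.4%. Jun rose 5.31-fold in CD1530 and 2.47-fold in AGN. Nr4a1 fell 2.71-fold and 2.90-fold, and Atf3 1.25-fold and 2.51-fold. The Ier2 fall in CD1530 had overlapping libraries (edgeR adjusted p = 0.0323) and became 0.085 to 0.16 without PM replicate 2 or D10 replicates 2 or 3, and that of Atf3 in CD1530 (0.00467) became 0.0651 without PM replicate 3.

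The comparison of CD1530 with AGN at matched times sets 1 ligand against the other, with TGFβ1, SAG and FGF2 shared. With no group lacking both ligands, a difference cannot be assigned to either of them. A change within cells and a difference in cell makeup also cannot be told apart in these unsorted cultures. At D6.25 and D6.75, Junb and Ier2 were higher in CD1530, and no other member passed the test. Junb exceeded AGN 1.25-fold at D6.25, 1.24-fold at D6.75 and 1.26-fold at D7.5 (edgeR adjusted p = 9.69e-06, 2.13e-06 and 1.52e-06). At D6.75 its libraries had 146, 131 and 127 CPM in CD1530 and 110, 109 and 105 in AGN. The CD1530 libraries lay above the AGN libraries at each of these times, without overlap. Of all genes, 21.1%, 26.3% and 42.5% had no overlap between the conditions at D6.25, D6.75 and D7.5. Ier2 was 1.14-fold higher at D6.25 and 1.17-fold higher at D6.75.

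Counted over the set, 2 of the 9 genes were higher and none lower at D6.25, where 1.23% of all genes were called higher and 0.695% lower. At D6.75, 2 were higher and none lower, against 7.94% and 10% of all genes. The Ier2 call at D6.25 (edgeR adjusted p = 0.03) was lost without any 1 of the 6 libraries compared (0.0506 to 0.184), and that at D6.75 (0.000906) with the compared groups alone (0.129). At D6.75 its CD1530 libraries were uneven, at 231, 187 and 191 CPM, against 175, 173 and 172 in AGN. The highest of these was replicate 1, which stood apart from its replicates, and without it the Ier2 difference was log2 0.13 in place of 0.23 (edgeR adjusted p = 0.0145) and that of Junb 0.25 in place of 0.31, with both still called.

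At D7.5, 3 genes were higher in CD1530 (Jun, Junb and Atf3) and none lower, against 15.2% and 11.8% of all genes. Jun was 1.31-fold higher, at 233, 231 and 224 CPM against 179, 175 and 172. Atf3 was also 1.31-fold higher, at 11.9, 12.1 and 11 CPM against 8.55, 9.30 and 8.79. Neither gene's groups overlapped, nor did those of 42.5% of all genes.

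At D8.5, 2 genes were higher in CD1530 (Jun, 1.14-fold, and Atf3, 1.39-fold) and 3 lower (Egr1, Ier2 and Nr4a1), against 20.4% and 19.6% of all genes. Egr1 had 72.2, 72.4 and 75.8 CPM in CD1530 and 101, 99.4 and 104 in AGN, which is 1.38-fold lower with no overlap (edgeR adjusted p = 1.02e-09). Ier2 was 1.18-fold lower and did not overlap, which held for 51.4% of all genes at D8.5. Nr4a1 was 1.25-fold lower, at 10.6, 10.4 and 12.4 CPM against 14.7, 12.2 and 14.4, and its groups overlapped. The same 5 genes were called without AGN D8.5 replicate 1, the deepest library.

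At D10, 5 genes were higher in CD1530 and none lower, against 22.7% and 24% of all genes. The 5 were Fosb, Jun, Atf3, Egr1 and Fos. Fosb, at 6.82, 7.43 and 5.68 CPM against 1.38, 1.45 and 0.891, differed 5.36-fold (log2 2.42 ± 0.22 SE, edgeR adjusted p = 1.37e-12). Jun, at 311, 315 and 316 CPM against 144, 148 and 146, differed 2.15-fold (log2 1.11 ± 0.04, adjusted p = 4.46e-26). Atf3, at 10.8, 11 and 10.7 CPM against 4.75, 5.78 and 5.58, differed 2.01-fold (log2 1.01 ± 0.12, adjusted p = 4e-09). In each of these genes the lowest CD1530 library was above the highest AGN library.

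Egr1 differed 1.57-fold at D10 (log2 0.65 ± 0.05, edgeR adjusted p = 1.65e-14), at 185, 184 and 182 CPM against 120, 118 and 113. Fos differed 1.45-fold (log2 0.54 ± 0.09, adjusted p = 1.79e-06), at 19.6, 22 and 21 CPM against 15.2, 14.3 and 13.5. Both sets of libraries were apart. At D10, 57.0% of all genes likewise had no overlap between CD1530 and AGN libraries. The other members did not pass the test at D10: Fosl2 (log2 −0.12 ± 0.09), Junb (−0.07 ± 0.05), Ier2 (−0.04 ± 0.05) and Nr4a1 (0.10 ± 0.10). Of these, Junb, Ier2 and Nr4a1 overlapped. The median log2 difference of the 9 genes at D10 was 0.54, and that of all genes −0.02.

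**Figure D3:**
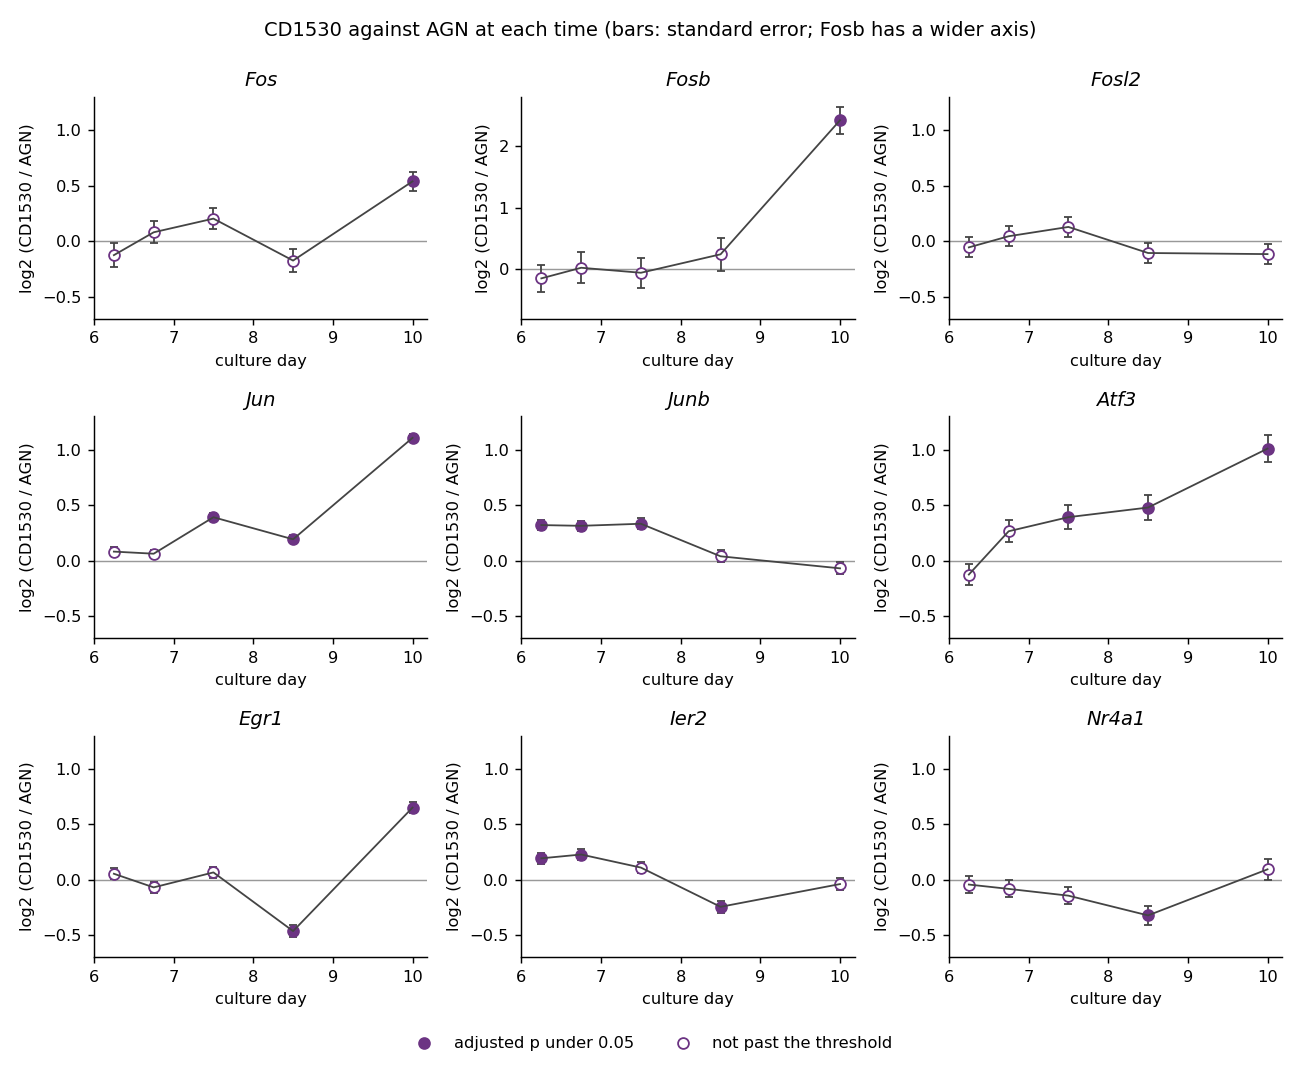
log2 ratio of CD1530 to AGN (y, bars are standard errors of the edgeR fit, n = 3 per group) against culture day (x) for each gene, with filled points where the adjusted p was under 0.05. Egr1 lies at −0.46 at D8.5 and 0.65 at D10, and Fosb is past the threshold at D10 alone, at 2.42.

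Whether the difference between ligands itself varied over the 5 times was tested in 1 interaction with 4 degrees of freedom, which called 7 of the 9 genes, against 48.8% of all genes. Jun (edgeR adjusted p = 3.15e-20), Egr1 (8.54e-15) and Fosb (6.52e-09) led, followed by Atf3, Ier2, Junb and Fos. Fosl2 (0.358) and Nr4a1 (0.0706) did not pass. The Nr4a1 value fell to 0.0433, 0.0267 and 0.0222 without CD1530 D6.25 replicate 1, CD1530 D8.5 replicate 3 or AGN D8.5 replicate 2.

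A test of the last step alone, added after the data were seen, asked whether the change from D8.5 to D10 differed between the conditions. It called 7 genes in favour of CD1530 and none in favour of AGN, against 12.7% and 14.1% of all genes. The difference of the log2 changes was 2.18 ± 0.35 (SE) for Fosb, 1.11 ± 0.07 for Egr1, 0.92 ± 0.05 for Jun and 0.71 ± 0.13 for Fos (edgeR adjusted p = 5.16e-06, 1.02e-15, 3.13e-17 and 6.79e-05). It was 0.53 ± 0.17 for Atf3, 0.42 ± 0.13 for Nr4a1 and 0.21 ± 0.08 for Ier2, which had fallen in AGN and were not called in CD1530. Of these, the Ier2 value (0.0391) became 0.0577 to 0.119 without any 1 of the 12 libraries except CD1530 D10 replicates 2 and 3 and AGN D8.5 replicate 1, and 0.0623 in DESeq2. The Atf3 value (0.0141) became 0.0581 without AGN D10 replicate 1, and the Nr4a1 value (0.0146) became 0.0586 and 0.0584 without CD1530 D10 replicate 2 or AGN D8.5 replicate 1.

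The makeup of the AP-1 transcripts can be described per length, as shares of the summed RPKM of Fos, Fosb, Fosl2, Jun, Junb and Atf3, with no test. Other AP-1 genes, among them Jund, which was not analysed here, are not in this sum. The sum was 49.2 ± 2.71 RPKM (SD, n = 3) in PM, 175 ± 2.68 in CD1530 D6.25 and 152 ± 3.61 in AGN D6.25. It declined to 105 ± 2.71 in CD1530 D8.5 and 95.2 ± 1.39 in AGN D8.5, and then stood at 142 ± 2.55 in CD1530 D10 and 84.9 ± 1.28 in AGN D10. The D10 sums were thus farther apart than at any earlier time.

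In PM, Jun and Junb held near equal shares, 37.7% ± 1.17 and 35.7% ± 1.06, and Atf3 and Fos 12.8% ± 1.71 and 9.33% ± 0.867. At D6.25, Junb held 59.8% ± 0.276 in CD1530 and 55.1% ± 0.462 in AGN, and Jun 32.6% ± 0.334 and 35.5% ± 0.630. By D10 in CD1530, Jun held 69.3% ± 1.07 and Junb 16.1% ± 0.960. By D10 in AGN, Jun held 53.9% ± 0.296 and Junb 28.3% ± 0.377. Among the 6 genes summed, the FOS genes held minor shares. At D10, Fos held 6.23% ± 0.262 in CD1530 and 7.18% ± 0.470 in AGN, Fosl2 4.10% ± 0.0668 and 7.44% ± 0.328, and Fosb 0.747% ± 0.0915 and 0.233% ± 0.0560. The FOS gene Fosl1 is not in this sum. Shares of Fosl2 and Fosb also depend on their exon unions, of 9680 and 6243 bases.

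**Figure D4:**
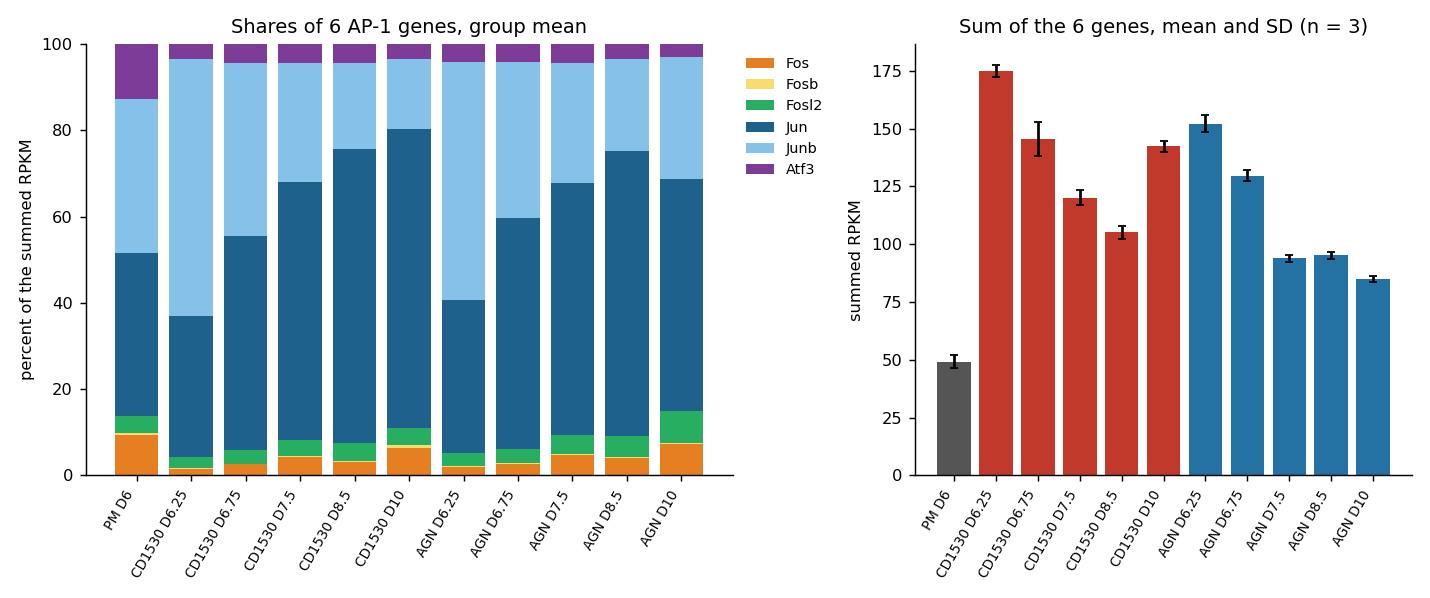
Left, stacked bars of the group mean share (percent, y) of each of 6 AP-1 genes in their summed RPKM for the 11 groups (x), and right, that sum (RPKM, y) as bars with SD of 3 libraries, red for CD1530, blue for AGN and grey for PM. Junb (light blue) holds most of the bar at D6.25 (59.8% and 55.1%) and Jun (dark blue) at D8.5 and D10.

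Related genes were taken from lists by role. At the PM to D6.25 step, other AP-1 genes rose in 8 of 11 cases and fell in 1 in CD1530, and rose in 9 and fell in 1 in AGN, with median log2 changes of 0.56 and 0.48 against 0.00 for all genes in both. The counts of each list are to be read against the shares of all genes that rose and fell at this step, which were 34.5% and 33.3% for CD1530 and 35% and 33.1% for AGN. Fosl1, the gene of the FOS protein Fra-1, went from 9.64 CPM in PM to 20.1 and 19.3 (log2 1.06 and 1.00). Batf3, an AP-1 gene of immune cells, went from 0.178 CPM to 0.803 and 0.536. All 5 other Egr, Nr4a and Nab genes measured rose in both conditions, Egr3 most, from 1.14 CPM to 18.3 and 14.8. Egr3, a paralog of Egr1, thus rose by log2 4.00 ± 0.12 (SE) and 3.70 ± 0.13 while Egr1 did not pass the test in this step.

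Among 32 other early-response genes, 25 rose and 6 fell at that step in both conditions. In CD1530, Gadd45g and Arc, a growth arrest gene and an activity-regulated gene, rose by log2 2.48 ± 0.07 and 2.35 ± 0.15, and Phlda1 by 2.27 ± 0.08. Of 12 ERK feedback genes, which encode phosphatases, Sprouty proteins and ETS factors that ERK signaling induces, 8 rose and 3 fell in CD1530 and 8 rose and 4 fell in AGN. The ERK phosphatase genes Dusp2, Dusp6 and Dusp5 rose by log2 4.03 ± 0.15, 1.83 ± 0.03 and 1.79 ± 0.06 in CD1530. Regulators upstream of these genes (SRF, its partners and the CREB family) rose in 5 and fell in 1 of 10 cases in CD1530 and rose in 8 and fell in 1 in AGN.

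For the ligand at D10, other AP-1 genes were higher in CD1530 in 4 and lower in 3 of 11 cases, against 22.7% of all genes higher and 24% lower, with a median log2 difference of 0.06. Batf3 (1.51 ± 0.19), Fosl1 (0.90 ± 0.12) and Mafk (0.66 ± 0.07) were the largest. Of the other Egr, Nr4a and Nab genes, 2 of 5 were higher: Nr4a3, at 1.21 against 0.305 CPM, and Egr3, at 10.5 against 5.53 CPM. Of the other early-response genes, 16 were higher and 11 lower. Arc (−1.20 ± 0.17) and Klf4 (−1.02 ± 0.05) were lower, and Plk3 (1.19 ± 0.07) higher.

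ERK feedback genes were higher in CD1530 at D10 in 7 and lower in 1 of 12 cases, led by Dusp5 (0.98 ± 0.06), Spry1 (0.82 ± 0.05) and Dusp4 (0.78 ± 0.06). Upstream regulators were higher in 4 and lower in 4 of 10. Of 8 contractile targets of SRF, 2 were higher and none lower, and of 8 TGFβ targets 6 were higher and 2 lower, although their summed level was 1969 to 2005 CPM in the CD1530 libraries and 2221 to 2322 in those of AGN. Of 10 heat shock genes, 9 were higher and none lower, and of 9 targets of the stress factor ATF4, 3 were higher and 4 lower. Of 8 p53 targets, 7 were higher and none lower, led by Mdm2 (0.96 ± 0.04), Trp53inp1 (0.94 ± 0.05) and Ccng1 (0.94 ± 0.03). These counts, too, stand beside 22.7% of all genes higher and 24% lower. The part of these programmes in the members' values was not tested.

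**Figure D5:**
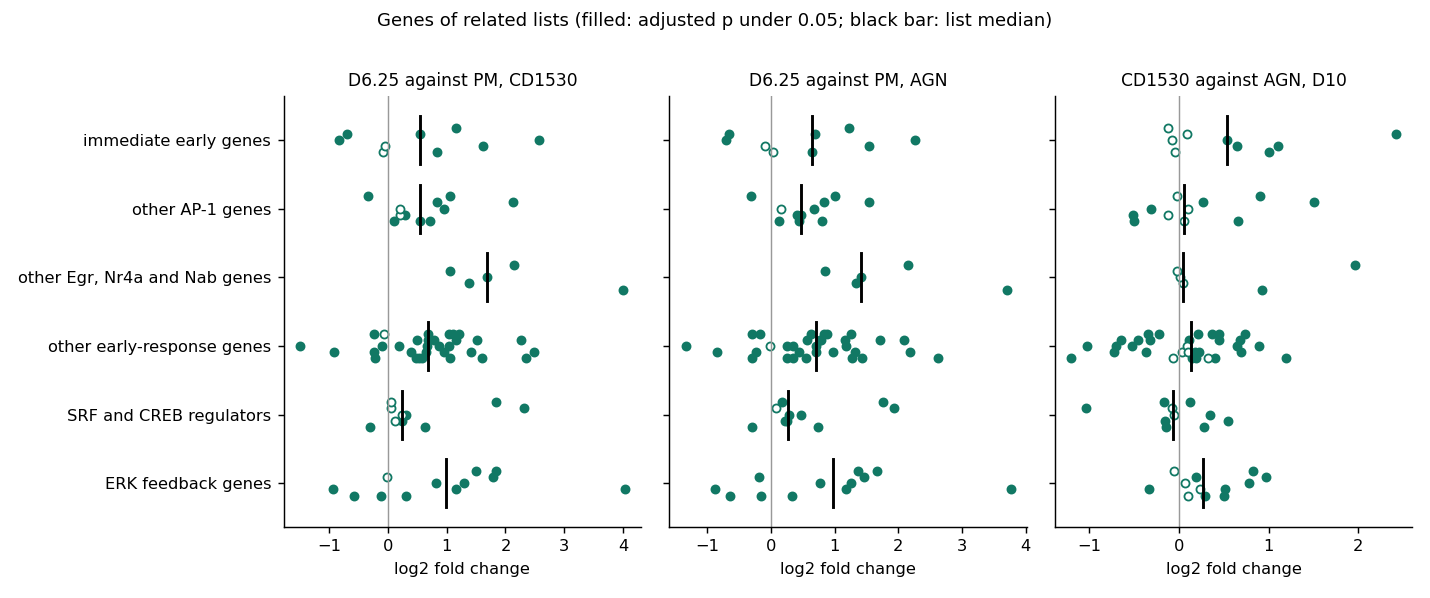
log2 fold change (x) of each gene of 6 lists (rows), filled where the adjusted p was under 0.05, with a black bar at the list median, for D6.25 against PM in CD1530 (left) and AGN (middle) and for CD1530 against AGN at D10 (right). At D10 the called members all lie right of 0, while the other early-response genes lie on both sides, 16 higher and 11 lower.

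Markers of cell types moved between the same groups. At D10, the summed level of 6 cartilage markers was 749 to 763 CPM in CD1530 and 3980 to 4166 in AGN, with 6 of 6 lower in CD1530. The 6 tendon markers summed to 15047 to 15707 CPM in CD1530 and 19864 to 21043 in AGN, with 4 lower and none higher in CD1530. The 5 neural markers summed to 79.2 to 83.8 and 33.2 to 36.4 CPM, the 5 blood markers to 38.3 to 40.7 and 71.9 to 76.5 (Gata1 had at most 3 counts in each CD1530 library), the 6 endothelial markers to 155 to 170 and 143 to 153, and the 5 pluripotency markers to 227 to 240 and 297 to 311. The 6 PM markers summed to 14.1 to 18.2 and 39.3 to 42.0 CPM, with Msgn1 at no more than 3 counts in each library of both groups. Their part in the members' values was not tested.

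From PM to D6.25, the same sums went from 22.7 to 26.3 CPM to 225 to 243 in CD1530 and 224 to 234 in AGN for cartilage markers. They went from 2604 to 2716 CPM to 1261 to 1322 and 1243 to 1277 for pluripotency markers, and from 103 to 108 CPM to 217 to 257 and 223 to 230 for endothelial markers. Tendon markers summed to 1397 to 1786 CPM in PM, 3273 to 4378 in CD1530 D6.25 and 4091 to 4463 in AGN D6.25, with Tnmd at no more than 3 counts in each library of all 3 groups. Neural markers went from 129 to 139 CPM to 68.3 to 71.2 and 71.3 to 79.3, with Sox1 at no more than 3 counts in each PM library. Blood markers went from 44.9 to 52.8 CPM to 67.2 to 75.5 and 73.6 to 74.8, and PM markers from 129 to 133 CPM to 105 to 111 and 117 to 122. These, too, were not tested for a part in the steps of the members.

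Some exons overlap those of another gene on the opposite strand, and the counting was not stated to use strand, so reads of such pairs cannot be told apart. Jun (chr4:95049034-95052222) overlaps Junos, whose group means were 0.314 to 0.912 CPM, far under those of Jun. Junos itself rose by log2 1.39 ± 0.42 (SE) from PM to CD1530 D6.25 and by 1.04 ± 0.45 to AGN D6.25. From PM to D10 it rose by 1.53 ± 0.43 in CD1530 and 1.12 ± 0.46 in AGN. Junos was higher in CD1530 than in AGN at D8.5 by 1.04 ± 0.39, and did not pass that test at the other times. Junb (chr8:84974484-84978718) overlaps Prdx2, a peroxiredoxin gene, at 255 to 338 CPM. Prdx2 rose by log2 0.16 ± 0.05 from PM to CD1530 D6.25 where Junb rose by 2.57, and it did not pass the test for the ligand at any of the 5 times. Mitochondrial genes took 1.36% of counts in PM and 0.814% to 1.12% as group means in the induced groups.

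The genes whose group means followed each member most closely were found over the 11 groups, as Pearson's r of log2(CPM + 1). The search covered 12372 genes averaging 50 counts or more, after leaving out the members, genes without a symbol and predicted genes (Gm, Rik or digit-led symbols). The genes found and the members share libraries and depth, and the values are a description of shape. Jun was closest to Rgs16 (r = 0.986) and Foxs1 (0.966), Junb to Fgf14 (0.987) and Cyth2 (0.980), and Fosl2 to Rnf217 (0.989) and Gstm5 (0.988). Fos was closest to Acad11 (0.952) and Pstpip1 (0.929), Fosb to Arap2 (0.914) and Mctp2 (0.890), and Egr1 to Creg1 (0.909) and Ddrgk1 (0.890). Ier2 was closest to Tnfaip2 (0.969) and Etv2 (0.961), Atf3 to Macroh2a1 (0.962) and Peg10 (0.954), and Nr4a1 to Tomm34 (0.977) and Ulk1 (0.972). Among the members themselves, the 36 pairs had r from −0.82 (Fosl2 with Nr4a1) to 0.92 (Junb with Ier2), with a median of 0.16, 25 positive and 11 negative, and 2 of them over 0.7.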

How the data were processed

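RNA from 33 cultures in 11 groups was sequenced as paired reads. The authors aligned reads to GRCm38 with STAR and counted them per gene with featureCounts, and the deposited values are raw counts for 17120 genes. Which annotation was counted, whether strand was used and how multimapping reads were treated is not given in the sources used here. Counts were analysed as deposited with edgeR 4.0.16 in R 4.3.3 (TMM scaling, filterByExpr, 1 mean per group, robust quasi-likelihood F test on all 33 libraries, 22 residual degrees of freedom). Benjamini-Hochberg adjustment ran over all genes within each of 19 contrasts, and genes under an adjusted p of 0.05 were called. Tests are two-sided, and ± with a log2 value is the standard error of the fit. Level values are TMM CPM, and RPKM divides them by the GENCODE M21 exon union, in which gene positions are also given (GRCm38).

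The 10 members and all gene lists were chosen with earlier results of these data known. All members in the table are named. Of each list, up to 3 called genes with the largest absolute log2 change in the contrast are named, and for each member the 2 most alike genes by Pearson's r. Alternatives were DESeq2 1.42.0, its size factors or library sizes alone in edgeR, a filter at 1 CPM in 3 libraries, no filter, a replicate block, the compared groups alone and each library left out. Replicates were biological per the study's methods, 0 columns were identical, and Pearson's r between replicates was 0.9939 to 0.9969, except for CD1530 D6.75 replicate 1 (0.9878 and 0.9879), which was kept. The fitting code was tested on simulated data.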

Additional observations from a re-analysis of the deposited data

Results flagged for a closer look

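The CD1530 to AGN difference varied over the 5 induction times in 7 genes, by the interaction test in edgeR over all genes. The adjusted p was 0.000114 for Fos, 6.52e-09 for Fosb, 3.15e-20 for Jun and 3.86e-06 for Junb. It was 8.54e-15 for Egr1, 3.66e-06 for Ier2 and 2.97e-06 for Atf3. Fos, Fosb, Jun, Egr1 and Atf3 had their largest CD1530 excess at D10, while Junb and Ier2 had theirs by D7.5, and Egr1 and Ier2 were lower in CD1530 at D8.5.

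The change from D8.5 to D10 differed between the conditions in 7 genes, in a test chosen after seeing the data. The edgeR adjusted p was 6.79e-05 for Fos, 5.16e-06 for Fosb, 3.13e-17 for Jun and 1.02e-15 for Egr1, and 0.0391 for Ier2, 0.0141 for Atf3 and 0.0146 for Nr4a1. Jun rose in CD1530 and fell in AGN, and its D8.5 and D10 libraries did not overlap in either condition.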

How the results depend on the processing

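Of 1627 alternative values of called genes, 1554 kept direction and call, 73 kept direction and lost the call, and 0 reversed. The lost calls are given beside their results in the report. The values kept include those of the refit with no filter, which could not differ from the main fit because the main filter removed 0 genes. The 5 calls at D10 between CD1530 and AGN held in every alternative. The number of members called between CD1530 and AGN fell from 2 to 1 at D6.25 when any 1 library was left out (1 to 1) and from 2 to 1 at D6.75 with the compared groups alone. It fell from 7 to 4 to 6 when a library was left out in AGN from D6.25 to D6.75 (4 without AGN D6.75 replicate 3) and from D7.5 to D8.5 (4 without AGN D8.5 replicate 1). With the compared groups alone, all genes called went from 329 to 804 (CD1530 against AGN, D6.25), from 3076 to 1236 (D6.75), from 7853 to 5185 (CD1530, D6.25 to D6.75) and from 5854 to 2792 (CD1530, D6.75 to D7.5). The 329 became 196 to 276 when 1 library was left out, lowest without AGN D6.25 replicate 3. With library sizes alone, the share of called genes that were higher went from 51.6% to 40.5% (CD1530, D7.5 to D8.5), from 50.9% to 32.2% (AGN, same step), from 47.8% to 35.6% (CD1530, D8.5 to D10) and from 50.4% to 38.7% (AGN, same step), and the median of all genes shifted to −0.15 (log2) in AGN from PM to D10. Depth limits Fosb most, at 15 to 24 counts per library in AGN D10.

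With the replicate number as a block, members called stayed at 2 at D6.25 and 5 at D10, and no single call changed. Same-numbered samples did not deviate together (correlations of −0.295 to 0.284, 10 of 165 over 0.1), so the numbers are not taken as pairs.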
